A study of Mus musculus with 12 samples.

Results

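The miRNAs mmu-miR-10a, mmu-miR-10b and mmu-miR-196b are encoded inside the Hox gene clusters, and the name mmu-miR-196c was listed with them (all written below without the species prefix). Their levels were followed in murine pulmonary endothelial cells with and without stimulation of the receptors NOD1 and NOD2. The members were taken by name, as the mouse assays of these 4 names on a TaqMan low-density array (TLDA), a card on which every well amplifies 1 small RNA. Of the 4 names, 3 had a mouse assay among the 375 miRNA assays of the card, namely miR-10a, miR-10b and miR-196b. MiR-196c had no mouse assay, but the card holds a rat assay named rno-miR-196c, which is described beside the members and not counted among them. Which mouse RNA this rat assay reads was not tested. Primary endothelial cells had been isolated from the lungs of male C57BL/6N wild type mice of 6 to 10 weeks, with 3 mice pooled per isolation, by magnetic beads against CD144 and then CD31, and were grown to confluence. After 2 hours of starvation they were left unstimulated (control) or stimulated for 6 hours with Tri-DAP, a NOD1 ligand, or MDP, a NOD2 ligand, each at 10 μg/mL. Each of the 3 groups has 4 arrays, which carry the label numbers 4, 7, 10 and 13 for control, 5, 8, 11 and 14 for Tri-DAP and 6, 9, 12 and 15 for MDP. The cells came from 4 independent isolations, but neither the labels nor the methods say which arrays share one, so that p-values measure the spread between arrays.

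The readout is the Ct, the PCR cycle at which a well crosses the fluorescence threshold, so that an earlier Ct stands for more RNA and 1 cycle for a doubling. A well that crossed no threshold within 40 cycles is called undetermined and was left missing. Between 231 and 254 miRNAs were measured per array. The mean Ct of the reference RNA U6 ran from 18.3 to 21.6 over the arrays, and the SD of its 4 wells on an array from 0.11 to 2.05 cycles. Since this reference is noisy, levels are also given relative to the array mean, the mean Ct of the 174 miRNAs that were measured on all 12 arrays. MiR-126-3p, which is known to be abundant in endothelial cells, had a Ct between 18.6 and 20.6 on every array.

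MiRNAs are short RNAs that hold a complementary mRNA in a silencing complex, and bases 2 to 8 of the miRNA, the seed, do most of the pairing. Hox genes are transcription factors that give cells their position along the body axis, and the miR-10 and miR-196 genes lie among them and are known to silence some of their neighbours. MiR-10a and miR-10b are also known in endothelial cells, where miR-10a has been described as a brake on NF-κB signalling and both as regulators of vessel growth. MiR-10a has further been reported to target NOD2 in dendritic cells, which links it to the receptor that MDP stimulates.

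The mature sequences of the 3 members, as given by RefSeq on GRCm38.p6, are shown with the seed in capitals because they show which members share a seed and how little separates miR-10a from miR-10b.
miR-10a: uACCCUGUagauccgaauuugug
miR-10b: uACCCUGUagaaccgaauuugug
miR-196b: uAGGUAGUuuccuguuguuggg
Both miR-10 sequences have 23 bases and the same seed, and the only substitution from miR-10a to miR-10b is U12A, counted from 1 at the 5′ end. Of the 1679 mature mouse miRNAs in the RefSeq table, 2 carried this seed, which are miR-10a and miR-10b. The seed of miR-196b was also carried by 2, miR-196b and miR-196a, and the card holds no assay row for miR-196a. MiR-10a lies in the HoxB cluster at chr11:96317186-96317208 on the plus strand, within the span of Hoxb3 and between Hoxb5 and Hoxb4. MiR-10b lies in the HoxD cluster at chr2:74726074-74726096 on the plus strand, where its hairpin overlaps the annotated spans of Hoxd3 and Hoxd4. MiR-196b lies in the HoxA cluster at chr6:52230129-52230150 on the minus strand, between Hoxa9 and Hoxa10. The members thus come from 3 different chromosomes. No sequence is shown for rno-miR-196c, and no mouse position for miR-196c.

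Both miR-10 members were well expressed and both miR-196 assays were read late. Over the 12 arrays the mean Ct was 25.9 ± 1.30 (SD, n = 12) for miR-10b and 26.8 ± 0.61 (SD, n = 12) for miR-10a, and 12.5% and 15.6% of the 320 miRNAs measured on any array had an earlier mean Ct. For rno-miR-196c the mean Ct was 34.4 ± 0.77 (SD, n = 12), and for miR-196b it was 34.8 ± 1.14 (SD, n = 9), with 84.7% and 88.8% of the miRNAs earlier. MiR-10a was earlier than rno-miR-196c on 12 of 12 arrays, by a mean of 7.69 ± 1.03 cycles (SD; two-sided exact sign-flip permutation test, p = 0.000488, the smallest it can give, and 0.00146 after Benjamini-Hochberg adjustment over the 3 neighbouring pairs). The other neighbours in this order did not differ beyond their spread. MiR-10b was earlier than miR-10a on 9 of 12 arrays (mean difference 0.88 ± 1.55 cycles, SD; same exact test, p = 0.0786, adjusted p = 0.118), and rno-miR-196c was earlier than miR-196b on 6 of the 9 arrays that measured both (0.38 ± 1.25 cycles; exact p = 0.445, adjusted p = 0.445). Assays differ in efficiency, so that the order of different miRNAs by Ct is a rough one.

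**Figure D1:**
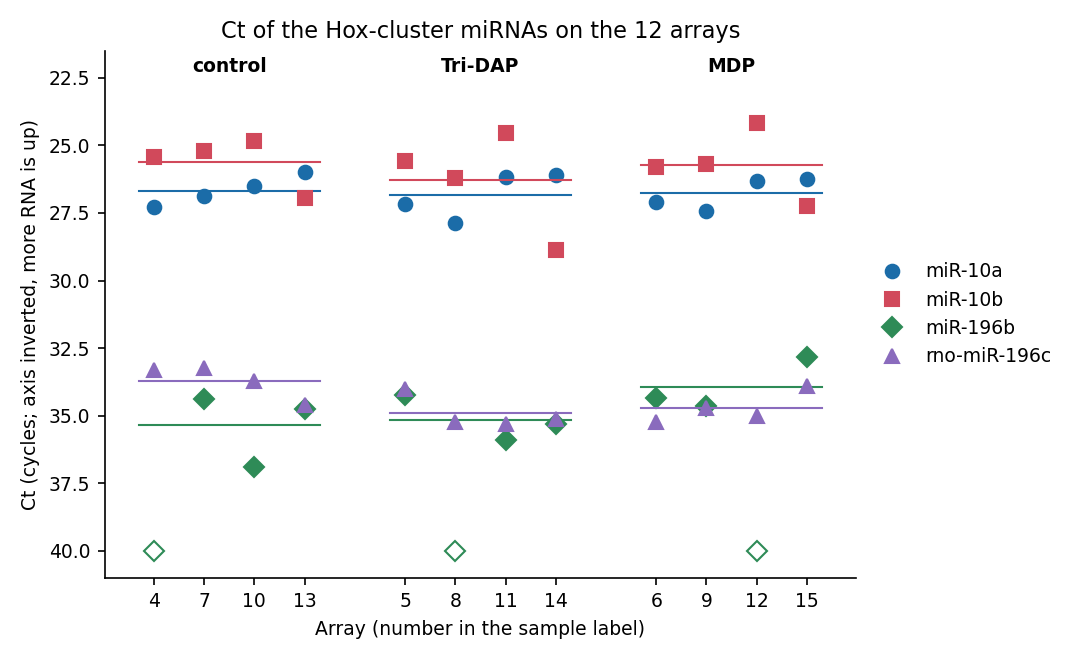
Ct of miR-10a, miR-10b, miR-196b and rno-miR-196c on each of the 12 arrays by group, with the axis inverted so that more RNA is up, group means as lines and undetermined wells as open symbols at 40. Both miR-10 assays lie between Ct 24.2 and 28.9 and both miR-196 assays between Ct 32.8 and 36.9.

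MiR-10a was read at almost the same level in every group. Its Ct was 27.3, 26.9, 26.5 and 26.0 on control arrays 4, 7, 10 and 13. After Tri-DAP it was 27.2, 27.9, 26.2 and 26.1 on arrays 5, 8, 11 and 14, and after MDP it was 27.1, 27.4, 26.3 and 26.2 on arrays 6, 9, 12 and 15. The 3 groups overlapped, and the latest reading was on Tri-DAP array 8, where U6 was also latest. Relative to U6, the log2 level of miR-10a averaged -7.03 ± 0.40 without stimulation, -7.30 ± 0.71 with Tri-DAP and -7.12 ± 0.49 with MDP (SD, n = 4 in each group). Relative to the array mean, miR-10a spanned 0.79 on the log2 scale over all 12 arrays, or 1.73-fold. Among the 174 miRNAs measured on all arrays, its SD on this scale of 0.28 ranked 163rd from the largest, where the median SD was 0.66.

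MiR-10b, which shares the seed of miR-10a, varied far more and did so between arrays rather than between groups. Its Ct was 25.4, 25.2, 24.8 and 27.0 on control arrays 4, 7, 10 and 13. After Tri-DAP it was 25.6, 26.2, 24.5 and 28.9 on arrays 5, 8, 11 and 14, and after MDP it was 25.8, 25.7, 24.2 and 27.3 on arrays 6, 9, 12 and 15. In each group the array with the highest number, 13, 14 or 15, had the latest reading, and the groups overlapped. Relative to U6, the log2 level averaged -5.96 ± 1.06 without stimulation, -6.77 ± 2.61 with Tri-DAP and -6.08 ± 0.99 with MDP (SD, n = 4 in each group). Relative to the array mean, miR-10b spanned 4.87 on the log2 scale, or 29.2-fold, and its SD of 1.45 ranked 22nd of 174. Of the 21 miRNAs whose mean Ct lay within 1 cycle of that of miR-10b, itself included, miR-10b had the largest SD, and the next had 0.89. Just later than this window, miR-199a-3p (mean Ct 26.9) had an SD of 1.39 and miR-214 (mean Ct 26.9) one of 2.17, both of the fibroblast and mural list.

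**Figure D2:**
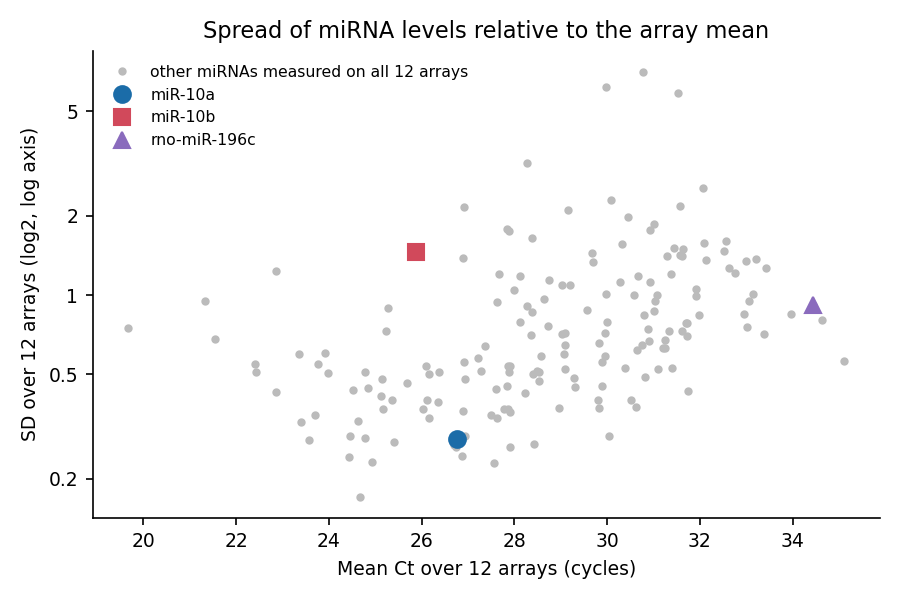
SD of the log2 level relative to the array mean against the mean Ct, for each of the 174 miRNAs measured on all 12 arrays, with the SD on a log axis. MiR-10a lies near the lower edge at 0.28, and miR-10b lies at 1.45, above the others within 1 cycle of its mean Ct, while miR-214, at 2.17, lies just later than that.

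The ratio of miR-10a to miR-10b within an array needs no reference RNA and showed the same arrays standing apart. On arrays 4 to 12, miR-10a was lower than miR-10b on 9 of 9 arrays, with a log2 ratio between -2.15 and -1.30. The log2 ratio was 0.96 on control array 13, 2.74 on Tri-DAP array 14 and 1.01 on MDP array 15, so that on these 3 arrays miR-10a exceeded miR-10b, by 1.94-fold, 6.67-fold and 2.01-fold. Both miRNAs were at Ct 28.9 or earlier on these arrays, so that neither was near the end of the run. The mean log2 ratio averaged -1.07 ± 1.35 without stimulation, -0.53 ± 2.18 with Tri-DAP and -1.04 ± 1.41 with MDP (SD, n = 4 in each group). The differences between these means were within the spread (exact permutation tests, two-sided, p = 0.457 for Tri-DAP against control, 0.943 for MDP against control and 0.629 for MDP against Tri-DAP, and adjusted p between 0.823 and 0.943 over the 9 comparisons of miR-10a with another assay). Without arrays 13, 14 and 15, a setting chosen after seeing the data, miR-10b was earlier than miR-10a by a mean of 1.69 cycles. No p is given for this, since the arrays left out are those of the other order. The mean difference was 1.21 cycles without Tri-DAP array 14 alone and 1.05 without MDP array 15 alone. Leaving out each array in turn, this difference passed the threshold in 2 of 12 cases.

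**Figure D3:**
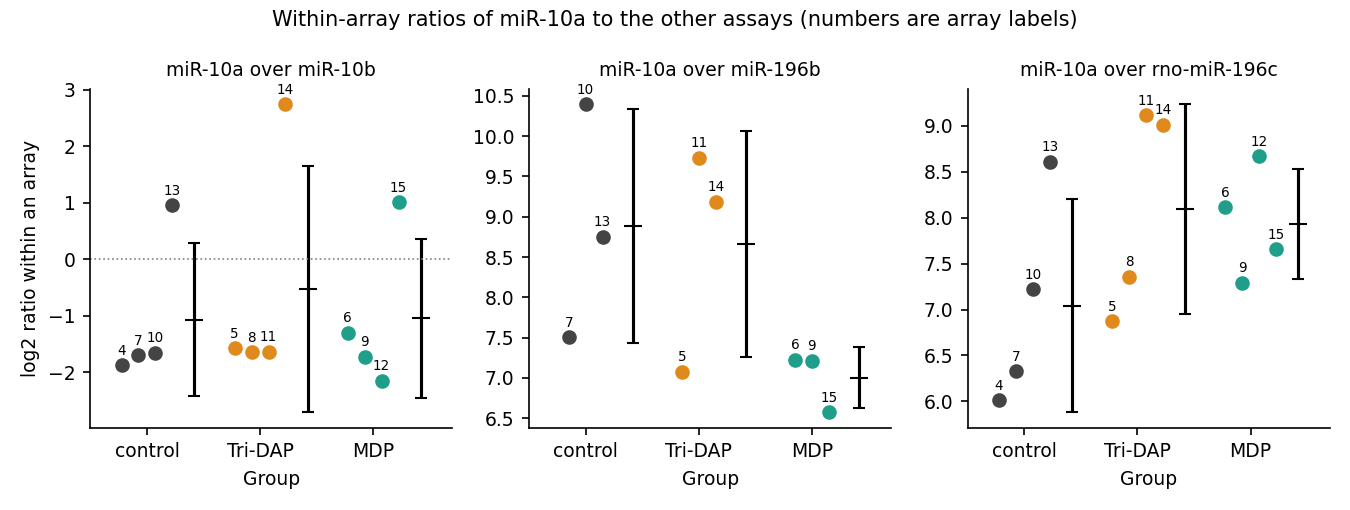
Log2 ratio of miR-10a to miR-10b, miR-196b and rno-miR-196c within each array, by group, where each point is an array and the bars give the group mean ± SD. Arrays 13, 14 and 15 lie above 0 for miR-10b, at 0.96, 2.74 and 1.01, and the other 9 arrays lie between -2.15 and -1.30.

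MiRNAs that mark other cells differed on the same 3 arrays. The summed level of the fibroblast and mural list relative to the array mean, of which 5 of 6 members are on the card, was between 6.29 and 6.46 on the log2 scale on arrays 13, 14 and 15 and between 1.20 and 3.81 on arrays 4 to 12. MiR-145, a miRNA of smooth muscle cells and pericytes, was read at Ct 23.1 to 23.5 on these 3 arrays and at Ct 27.0 to 33.1 on the others. The summed level of the 2 endothelial assays, miR-126-3p and miR-126-5p, was between 8.11 and 8.23 on arrays 13, 14 and 15 and between 9.33 and 10.3 on arrays 4 to 12. The epithelial sum was between 1.72 and 1.97 on arrays 13, 14 and 15. It was 3.18 on control array 4, 1.84 on Tri-DAP array 5 and between -2.60 and 0.96 on arrays 6 to 12. Array 4 had the earliest miR-200b well, at Ct 25.6, and miR-205 was read on array 5 alone, at Ct 27.5. Epithelial miR-141 and miR-200c, where measured, were highest on arrays 13, 14 and 15, while miR-200a, miR-200b and miR-375 overlapped with the other arrays. The leukocyte sum was between -1.44 and -0.90 on arrays 13, 14 and 15 and between -0.97 and 0.10 on arrays 4 to 12. Of the members of both lists that every array measured, epithelial miR-429 was highest and leukocyte miR-150 lowest on these 3 arrays. Epithelial miR-203 and leukocyte miR-223 overlapped with the other arrays. None of the listed markers on the card was undetermined throughout. The part of these markers in the level of miR-10b was not tested, and in RNA of a whole culture fewer cells of a type and less RNA per cell cannot be told apart. MiR-10a relative to the array mean was 2.22, 2.20 and 2.13 on arrays 13, 14 and 15, and between 1.43 and 2.19 on arrays 4 to 12.

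**Figure D4:**
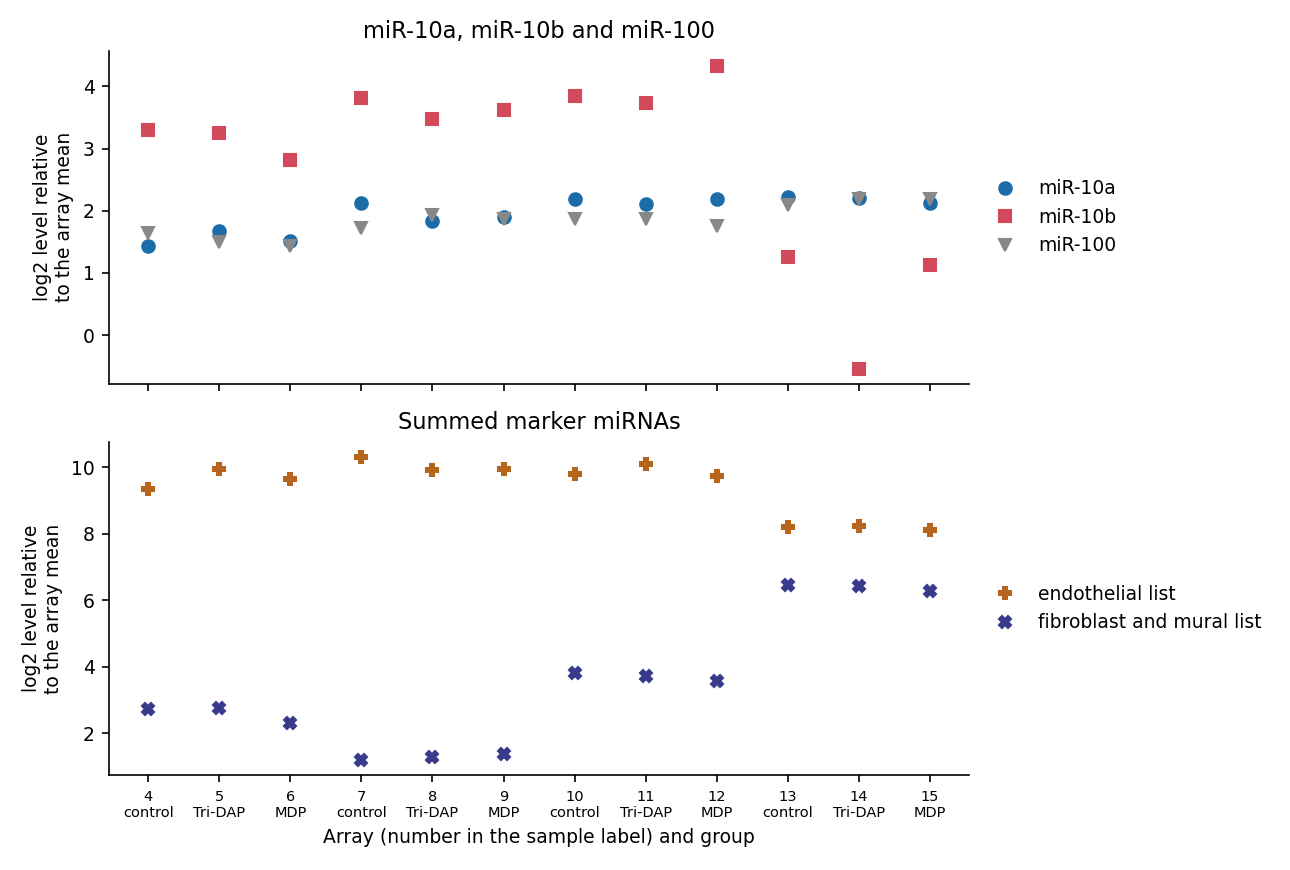
Log2 level relative to the array mean on each array for miR-10a, miR-10b and miR-100 (above) and for the summed endothelial and fibroblast and mural marker miRNAs (below). On arrays 13, 14 and 15 miR-10b lies at 1.26, -0.54 and 1.12, below the 2.82 to 4.33 of the other arrays, the fibroblast and mural sum lies between 6.29 and 6.46 and the endothelial sum between 8.11 and 8.23.

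Both miR-10 members varied mostly between sets of arrays with neighbouring label numbers, 4 to 6, 7 to 9, 10 to 12 and 13 to 15, each of which holds 1 array of every group. Neither the labels nor the methods state such sets, and they were formed after seeing the data. They held 90.3% of the spread of miR-10a relative to the array mean and 89.7% of that of miR-10b, against a median of 68.6% over the 174 miRNAs, while the treatment groups held 0.72% and 3.33%, against a median of 4.44%. For rno-miR-196c the sets held 33.3% and the treatment groups 30.3%. For miR-100, miR-99a and miR-99b, related miRNAs outside the Hox clusters that are described below, the sets held 90.2%, 25.9% and 37.3%. For 9 of the 12 arrays, the array of highest correlation over the 174 miRNAs was in the same set. The difference of miR-10b between Tri-DAP and control relative to the array mean was -0.06 on the log2 scale in the set from 4 to 6, -0.34 in that from 7 to 9, -0.10 in that from 10 to 12 and -1.80 in that from 13 to 15. For miR-10a the same differences were 0.24, -0.29, -0.08 and -0.02. Over the 12 arrays miR-10a and miR-10b did not vary together (Pearson's r = -0.25, Spearman's rho = -0.03), whereas over the 9 arrays 4 to 12 their levels ran in parallel (r = 0.87). These coefficients describe arrays that share cell isolations and a common array mean, and no p is given.

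Neither ligand gave a called difference in any member. In the limma fit, at an unadjusted p under 0.05, 0 of the members were called in any of the 3 comparisons, and the share of all miRNAs called was 1.69% for Tri-DAP against control, 1.23% for MDP against control and 2.07% for MDP against Tri-DAP. No miRNA passed an adjusted p under 0.05. For miR-10a the log2 fold change was -0.27 after Tri-DAP (standard error 0.53, 95% interval -1.42 to 0.88, adjusted p = 0.998 from limma) and -0.09 after MDP (95% interval -1.24 to 1.06, adjusted p = 0.9997 from limma). The median log2 fold change of all miRNAs tested was -0.24 after Tri-DAP and -0.02 after MDP. For miR-10b the log2 fold change was -0.81 after Tri-DAP (standard error 1.12, 95% interval -3.24 to 1.63, adjusted p = 0.998 from limma), -0.06 without arrays 13, 14 and 15 and 0.46 without Tri-DAP array 14 alone. After MDP it was -0.12 (95% interval -2.55 to 2.32, adjusted p = 0.9997 from limma). Between MDP and Tri-DAP, miR-10a differed by 0.18 and miR-10b by 0.69 on the log2 scale, and neither was called. Relative to the array mean, the 95% interval after Tri-DAP was -0.73 to 0.65 for miR-10a and -2.85 to 1.70 for miR-10b. With the sets of neighbouring label numbers added as a block, these were -0.38 to 0.30 and -1.40 to 0.25. Both ligand comparisons share the 4 control arrays.

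**Figure D5:**
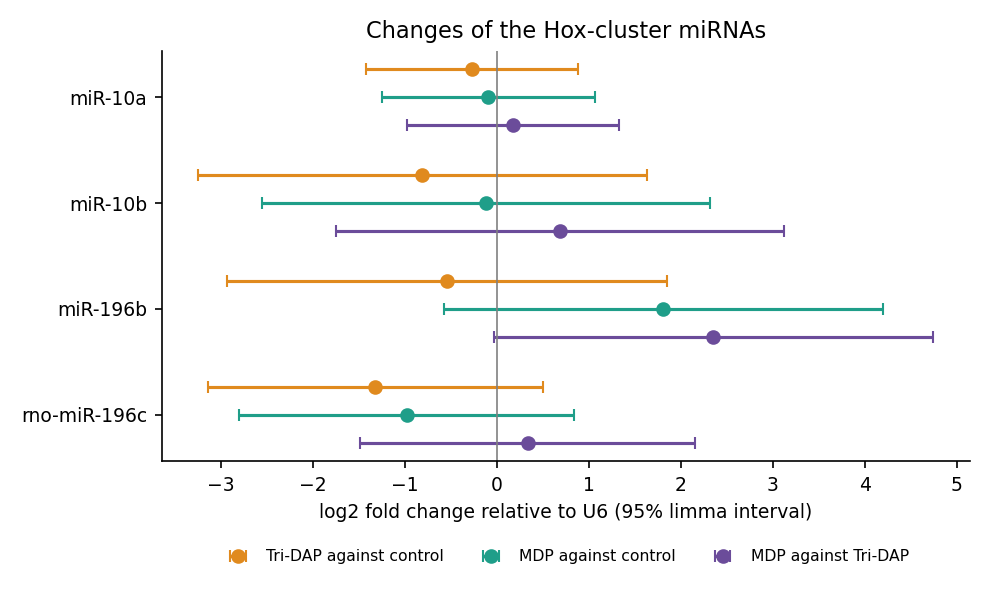
Log2 fold change relative to U6 of each assay in the 3 comparisons from the limma fit, with its 95% interval. All intervals include 0, and that of miR-196b for MDP against Tri-DAP runs from -0.03 to 4.74.

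MiR-196b was read at the end of the run, with 1 undetermined array in each group. Its Ct was 34.4, 36.9 and 34.8 on control arrays 7, 10 and 13, and control array 4 was undetermined. After Tri-DAP it was 34.2, 35.9 and 35.3 on arrays 5, 11 and 14, and array 8 was undetermined. After MDP it was 34.3, 34.6 and 32.8 on arrays 6, 9 and 15, and array 12 was undetermined. The groups overlapped, and MDP array 15 had the earliest reading of all. Relative to U6, its log2 level averaged -15.8 ± 1.68 without stimulation, -16.3 ± 1.53 with Tri-DAP and -14.0 ± 0.77 with MDP (SD, n = 3 in each group). The log2 fold change was -0.54 after Tri-DAP (standard error 1.06) and 1.81 after MDP (standard error 1.06, adjusted p = 0.9997 from limma). The value after MDP was 0.88 without control array 10, which held the latest reading, or without wells later than Ct 35, and 1.08 with undetermined wells at Ct 40.

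For MDP against Tri-DAP the difference of miR-196b was 2.35 on the log2 scale (standard error 1.06, 95% interval -0.03 to 4.74, adjusted p = 0.999 from limma), just short of the unadjusted threshold. An exact permutation test (two-sided) gave p = 0.2, where 3 arrays against 3 cannot go below 0.1. It shrank to 1.04 with undetermined wells at Ct 40, 1.22 with no reference, 1.52 with the array mean as the reference and 1.58 without arrays 13, 14 and 15, and to 1.63 with the sets as a block and 0.80 with the block and the array mean, and was called in none of these. The difference of 2.35 passed the unadjusted threshold of limma with only these 2 groups in the fit, and also with only the miRNAs tested in the fit, the latter a setting chosen after seeing the data. Leaving out each array in turn moved the difference between 1.83 and 3.23 and called it in 4 of 12 cases, at 3.23 without Tri-DAP array 5 and at 2.35 without control array 7, control array 10 or Tri-DAP array 8. The ratio of miR-10a to miR-196b within an array was lower by 1.88 on the log2 scale after MDP than in control cells, with 3 measured arrays in each group (exact permutation test, two-sided, p = 0.1, again the lowest possible, and adjusted p = 0.6 over 9 comparisons). The measured ratios of both groups did not overlap, but MDP array 12, where miR-196b was undetermined, would lie above all measured control ratios. With undetermined wells at Ct 40 the difference was -1.17 (exact permutation p = 0.571), and without control array 10 it was -1.13.

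The rat assay rno-miR-196c was measured on all 12 arrays, also late. Its Ct was 33.3, 33.2, 33.7 and 34.6 on control arrays 4, 7, 10 and 13. After Tri-DAP it was 34.0, 35.2, 35.3 and 35.1 on arrays 5, 8, 11 and 14, and after MDP it was 35.2, 34.7, 34.995 and 33.9 on arrays 6, 9, 12 and 15. The readings of control arrays 4, 7 and 10 were earlier than all stimulated readings, and that of control array 13 was not, so that the groups overlapped. Relative to U6, its log2 level averaged -14.1 ± 0.91 without stimulation, -15.4 ± 1.65 with Tri-DAP and -15.1 ± 0.89 with MDP (SD, n = 4 in each group). The log2 fold change was -1.32 after Tri-DAP (standard error 0.84, 95% interval -3.14 to 0.50, adjusted p = 0.998 from limma) and -0.98 after MDP (95% interval -2.80 to 0.84, adjusted p = 0.9997 from limma). The value after MDP was -0.57 without MDP array 12 and -1.63 without arrays 13, 14 and 15. Within the sets of neighbouring label numbers, the difference between Tri-DAP and control relative to the array mean was -0.62, -1.32, -1.98 and -0.42, below 0 in 4 of 4 sets, and that between MDP and control was -2.01, -1.18, -1.46 and 0.86. With the sets as a block neither was called. Neither was called relative to U6 without the block, but the value after Tri-DAP was -1.26 with the mean of U6 and snoRNA202 as the reference and -1.20 with no reference, and passed the unadjusted threshold of limma in both. It was also called without Tri-DAP array 8, at -1.91. On the same arrays the muscle miRNAs, of which at most 3 wells were measured on an array, summed to between -6.34 and -3.66 on the log2 scale relative to the array mean after Tri-DAP and to between -3.06 and -0.19 on the 3 control arrays that measured any. On the 3 MDP arrays that measured any they summed to between -2.65 and 0.97. On arrays 4, 5, 6, 7, 8 and 11 the sum was that of 1 measured well, miR-1 on arrays 4, 5, 6 and 7 and miR-133a on arrays 8 and 11. MiR-133b was read on control array 13 alone, at Ct 29.3, and made up most of its sum. The sums thus compare different assays. MiR-1 was -0.19, -3.06 and -5.69 on control arrays 4, 7 and 13 and -5.51 and -5.10 on Tri-DAP arrays 5 and 14, so that these groups overlapped. The part of the muscle miRNAs in the level of rno-miR-196c was not tested.

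The order of both miR-196 assays varied between arrays. Where both were measured, rno-miR-196c exceeded miR-196b on 3 control arrays and 3 Tri-DAP arrays, by log2 ratios between 0.14 and 3.17, and lay below it on 3 MDP arrays, by log2 ratios between -1.09 and -0.08. On the remaining array of each group, MDP array 12 included, miR-196b was undetermined and rno-miR-196c was read, so that MDP arrays lay on both sides. This was noticed after seeing the values, and no test was run. Since no reading of miR-196b or of rno-miR-196c was earlier than Ct 32.8, small errors of the well weigh on these ratios.

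The miRNAs whose levels ran most like each member over the arrays were found by the correlation of the level relative to the array mean, as a description. For miR-10a they were miR-532-5p (r = 0.81), miR-28 (r = 0.81) and miR-25 (r = 0.80), and over arrays 4 to 12 these were 0.75, 0.83 and 0.77. For miR-10b they were miR-126-3p (r = 0.91), miR-150 (r = 0.90) and miR-672 (r = 0.89). Over arrays 4 to 12 these were 0.41, 0.62 and -0.30, so that the likeness of miR-10b to miR-126-3p was weaker without arrays 13, 14 and 15. For miR-196b, over 9 arrays, they were miR-21 (r = 0.75), miR-345-5p (r = 0.71) and miR-138 (r = 0.71), and for rno-miR-196c they were miR-484 (r = 0.65), miR-467c (r = 0.65) and miR-671-3p (r = 0.59).

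The miR-99 and miR-100 miRNAs resemble miR-10 in sequence with another seed, and are shown with it in capitals for the comparison with the sequences of miR-10a and miR-10b.
miR-99a: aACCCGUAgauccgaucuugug
miR-99b: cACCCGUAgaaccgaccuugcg
miR-100: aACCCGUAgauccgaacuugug
They lie outside the Hox clusters, on chromosomes 16, 17 and 9. The longest run of bases shared with miR-10a was 11 for miR-100 and 10 for miR-99a, and miR-99b shared 10 with miR-10b, each of which starts at base 7 of the miR-10 sequence. The mean Ct over the 12 arrays was 26.9 ± 0.56 (SD) for miR-100, 26.9 ± 0.59 (SD) for miR-99a and 24.9 ± 0.32 (SD) for miR-99b. None of the 3 was called in any comparison, with log2 fold changes between -0.27 and 0.13. MiR-100 varied with miR-10a (r = 0.71 over the 12 arrays), and on arrays 13, 14 and 15 it was read at Ct 26.1, 26.1 and 26.2, while miR-10b was late there. Of the other Hox-cluster miRNAs, miR-615-3p was undetermined on all 12 arrays. MiR-615-5p was undetermined on 11 arrays and was read at Ct 9.64 on Tri-DAP array 8, one of 5 wells under Ct 15 over all arrays, and no level was taken from it.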

How the data were processed

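Per the labels, 12 TLDAs were run, 4 per group. The authors deposited Ct values in cycles, in which 40 stands for an undetermined well, and a second table from which the mean of the 4 U6 wells had been subtracted, a log2 scale, as checked to within 5.33e-15 cycles. According to the methods, arrays ran for 40 cycles with an automatic threshold. A deposited table of the authors' own fold changes was not used, nor were 12 unnamed columns. The card holds 335 mouse and 40 rat miRNA assays and 9 control wells. The sign of the normalized values was turned here, and wells at 40 were left missing.

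All 12 arrays entered 1 fit with a mean per group and no block (limma 3.58.1, lmFit and eBayes, under R 4.3.3), which was tested on simulated data. The simulated arrays varied independently, so that this test does not cover arrays that share an isolation. A miRNA was tested with at least 2 values per group, adjusted by Benjamini-Hochberg over all miRNAs tested and called at an unadjusted p under 0.05. Ratios within an array were tested by exact permutation in Python 3.11.15 (scipy 1.17.1). Intervals are at 95%. For each member measured on at least 8 arrays, the 3 miRNAs of highest correlation among those on all 12 arrays were named, beside miR-99, miR-100, miR-615 and miR-196a as related miRNAs. Alternatives changed how undetermined or late wells (Ct over 35) were treated, which reference was used and which groups entered, and left out each array. The leukocyte list summed to between -1.44 and 0.10 and the epithelial list to between -2.60 and 3.18 (log2 relative to the array mean). Sequences and positions are from RefSeq. The members and lists were chosen with earlier results of these data known. The number of arrays limits the precision.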

Additional observations from a re-analysis of the deposited data

Results flagged for a closer look

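For miR-10b and its ratio to miR-10a, 1 array of a group lay far from the rest in 3 cases. MDP array 15 had a log2 level of miR-10b relative to U6 of -7.55, while the remaining MDP arrays lay between -5.70 and -5.47. Control array 13 had a log2 ratio of miR-10a to miR-10b of 0.96, while the remaining ones lay between -1.88 and -1.65. Tri-DAP array 14 had a ratio of 2.74, while the remaining ones lay between -1.65 and -1.57. Among 15 groups of 4 examined, about 0.75 such cases arise by chance, since the criterion picks 1 in 20 groups. The groups share arrays and the ratio is formed from levels also examined, so that the 3 cases are not independent and the count decides nothing.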

How the results depend on the processing

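The main fit was not paired, since every array carries a number of its own and no source says which arrays share an isolation. Sets of neighbouring label numbers, which no source states as a pairing, were tried as a block and changed no call. Of 166 values under other settings, 149 kept direction and side of the threshold, 12 reversed and 5 passed it, and the cause was not tested. Differences are on the log2 scale.

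Without arrays 13, 14 and 15, a setting chosen after seeing the data, MDP against Tri-DAP was -0.19 for miR-10a, -0.087 for miR-10b, -0.43 for rno-miR-196c and 0.24 for the ratio of miR-10a to rno-miR-196c, all of the other sign. Tri-DAP against control was 0.065 for miR-10a and 0.043 for miR-196b, also of the other sign, and miR-10b was earlier than miR-10a by 1.69 cycles. With the array mean as the reference, miR-10a was -0.016 for MDP against Tri-DAP, also with arrays of neighbouring label numbers as sets (chosen after seeing the data). MiR-196b was reversed for Tri-DAP against control, at 0.032 with the array mean, 0.12 with the sets added, 0.20 with no reference and 0.037 with undetermined wells at Ct 40. For MDP against Tri-DAP it passed the unadjusted threshold at 2.35 with only both groups or only the tested miRNAs in the fit. Rno-miR-196c passed it for Tri-DAP against control at -1.26 (U6 and snoRNA202) and -1.20 (no reference).

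Leaving out 1 array, 257 of 288 values kept direction and side of the threshold, 24 reversed and 7 passed it. For MDP against Tri-DAP the range was -0.010 to 0.53 for miR-10a, -0.58 to 1.41 for miR-10b, 1.83 to 3.23 for miR-196b and -0.15 to 0.93 for rno-miR-196c. For MDP against control it was -0.28 to 0.076 for miR-10a and -0.63 to 0.37 for miR-10b. For Tri-DAP against control it was -1.53 to 0.46 for miR-10b, the highest without Tri-DAP array 14, -1.47 to 0.16 for miR-196b and -1.91 to -0.83 for rno-miR-196c. The ratio of miR-10a to miR-10b ranged from -0.55 to 1.21 for Tri-DAP against control, -0.66 to 0.70 for MDP against control and -1.19 to 0.58 for MDP against Tri-DAP. The ratio to miR-196b ranged from -0.91 to 0.57 for Tri-DAP against control, and that to rno-miR-196c from -0.56 to 0.19 for MDP against Tri-DAP. MiR-10b led miR-10a by 0.76 to 1.21 cycles, and this passed the threshold in 2 of 12 cases. Requiring measurement on all 12 arrays gave no value for miR-196b, and the late Ct of both miR-196 assays limits their precision.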
